A study of Mus musculus with 3 samples.

Results

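The genes described here encode the proteins of the cytosolic ribosome, and they were read from 3 microarrays of mouse thymocytes. A gene was included where a probe set with a single gene symbol carried a systematic Rpl or Rps symbol, or was Rplp0, Rplp1, Rplp2 or Rpsa. S6 kinases and pseudogene symbols were left out, and a gene with several probe sets was read from the one with the highest mean over the arrays. This gave 61 genes of 19938. Of these, 30 encode proteins of the large (60S) subunit, 21 of the small (40S) subunit and 3 the stalk of the large subunit, which makes 54 core genes. The other 7 carry symbols of paralogs (Rpl3l, Rpl7l1, Rpl10l, Rpl32l, Rpl39l, Rps4l and Rps27l). Levels are log2 expression values as deposited, so a difference of 1 is a doubling.

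The cells were CD4+ CD8+ thymocytes, called double-positive (DP) for the 2 coreceptors that developing T cells carry at this stage, from wild-type C57BL/6 mice aged 5 to 6 weeks. They were isolated on beads, for CD8 first and CD4 next, and each of the 3 arrays holds total RNA from 1 cohort of littermates. There was 1 group and no treated or mutant sample, so the data allow a description of levels and of the differences between 3 cohorts, each measured once. The protocol text also describes formaldehyde crosslinking and does not say whether the cells used for RNA were crosslinked.

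A ribosome joins a small subunit, which reads the mRNA, to a large subunit, which forms the peptide bond. Its proteins are made in matched amounts and assembled with ribosomal RNA in the nucleolus. Most of their mRNAs begin with a run of pyrimidines at the very 5′ end, the TOP motif, through which mTORC1 and the RNA-binding protein Larp1 set their translation. In mice, loss of Rpl22 blocks the development of αβ T cells, which makes this family of interest in the thymus. When assembly fails, free Rpl5 and Rpl11 bind the ubiquitin ligase Mdm2 and stabilise p53.

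The TOP tract was looked up in RefSeq promoter windows (GRCm38.p6, 250 bases before to 50 after each annotated start). An entry was found for 49 of the 61 genes. A cytosine at the annotated start followed by at least 4 pyrimidines was present in 10 of the 49 (20.41%), against 2.826% of 6617 other genes above background and 3.008% of all 27025 genes in the table. This match needs the annotated start to be exact to the base, so its absence does not show that a gene lacks the tract. The 10 are shown because the tract is the sequence feature that most sets ribosomal protein mRNAs apart. Each line gives 5 bases before the annotated start and 25 after it, 5′ to 3′ on the gene's strand, with the pyrimidine run from the start in capitals.
Rpl14, chr9:120571512-120571541, plus strand: tctctCTTCTCgctgagcgccgccaacatg
Rpl28, chr7:4792960-4792989, plus strand: tgtctCTCTTTCCgtctccggccgccatag
Rpl38, chr11:114668575-114668604, plus strand: tcgttCTTTCCCCgttctcttcggttctca
Rplp2, chr7:141447646-141447675, plus strand: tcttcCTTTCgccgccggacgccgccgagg
Rps6, chr4:86857343-86857372, minus strand: cgggcCTCTTTTTCgtgacgcctcccaggc
Rps10, chr17:27635220-27635249, minus strand: cgcccCTTCCTTTCCagcctccgcctcgga
Rps15a, chr7:118116123-118116152, minus strand: gccatCTTCCCTCgccggtgagtgagtgtt
Rps18, chr17:33955641-33955670, minus strand: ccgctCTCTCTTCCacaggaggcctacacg
Rps21, chr2:180257374-180257403, plus strand: ccgccCTCCTgcccaatagtgctgcggagg
Rpl32l, chr10:20208434-20208463, plus strand: accagCTTCTTCCTTggtgctgcctacgag
The run was between 5 and 10 bases long. It was found in genes of all 4 kinds: 40S, 60S, stalk and paralog. Where the run could begin anywhere from 10 bases before to 40 after the start, 85.71% of the genes had one, against 56.67% of other genes above background. That looser window, chosen after the data were seen, holds a run in most genes of any kind.

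A second feature was the core of the site bound by ETS transcription factors (CCGGAAG on either strand), of which Ets1 was a mapped factor of the project. It was present in 19 of 49 ribosomal protein promoters (38.78%), against 24.29% of other genes above background and 9.928% of all genes. The stretches below run from 100 bases before to 20 bases after the start, with the ETS core in capitals (CTTCCGG where it lies on the opposite strand). Rps21, Rps18 and Rpl38 are shown as genes that were higher on array 1, and Rpl19 and Rps7 as genes with little difference between arrays, chosen after their values were seen.
Rps21, chr2:180257279-180257398, plus strand: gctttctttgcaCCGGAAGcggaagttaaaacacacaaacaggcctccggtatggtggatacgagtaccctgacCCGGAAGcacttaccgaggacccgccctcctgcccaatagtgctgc
Rps18, chr17:33955646-33955765, minus strand: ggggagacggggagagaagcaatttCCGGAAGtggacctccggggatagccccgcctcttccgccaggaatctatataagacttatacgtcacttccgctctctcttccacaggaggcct
Rpl38, chr11:114668480-114668599, plus strand: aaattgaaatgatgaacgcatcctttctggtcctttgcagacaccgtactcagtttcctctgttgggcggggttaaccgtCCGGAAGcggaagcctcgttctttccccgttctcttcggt
Rpl19, chr11:98026610-98026729, plus strand: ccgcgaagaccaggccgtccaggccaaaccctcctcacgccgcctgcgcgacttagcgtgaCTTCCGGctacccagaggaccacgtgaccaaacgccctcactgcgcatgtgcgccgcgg
Rps7, chr12:28635934-28636053, minus strand: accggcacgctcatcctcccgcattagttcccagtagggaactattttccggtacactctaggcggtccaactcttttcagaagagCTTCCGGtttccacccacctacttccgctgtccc
The core occurred 24 times in the 58 windows of the 49 genes, and 11 of these were centred within 60 bases before to 50 after the start. Windows of a gene with several annotated starts can overlap, so the same site can be counted more than once, as in Rps21. The core of the YY1 site (AAGATGGC, either strand) was in 6.122% of the ribosomal protein promoters and 6.483% of other genes above background, against 3.19% of all genes, and it overlapped the ETS core in 0 windows. TATA boxes (TATAAA, sense strand) were in 10.2% and 4.67%, and in 9.772% of all genes in the table. RUNX cores (TGTGGT) were in 10.2% and 14.28%, and in 18.92% of all genes. The E box CAGCTG, read by proteins such as E47, was in 6.122% and 16.47%, and in 18.29% of all genes. The other E box, CACCTG, was in 12.24% and 19.78%, and in 22.56% of all genes. A match is a description of letters in a window and not a bound site.

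**Figure D1:**
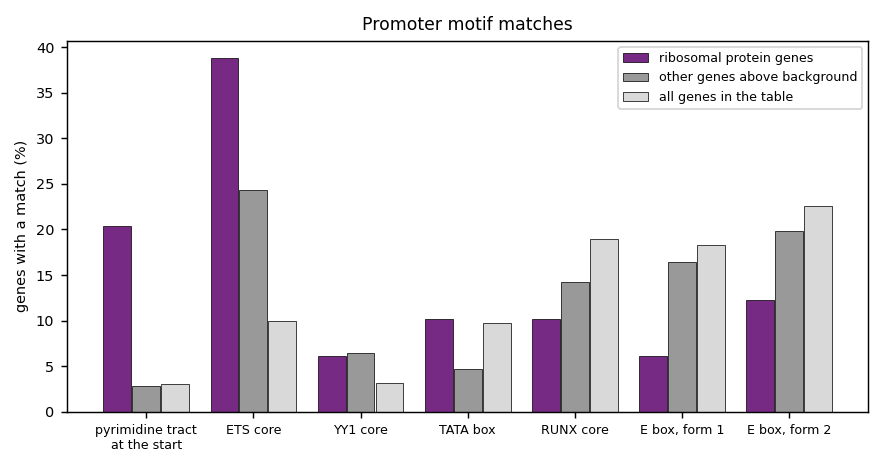
Share of genes (%) whose RefSeq promoter window holds each motif, for 49 ribosomal protein genes, 6617 other genes above background on all arrays and all 27025 genes in the table. The pyrimidine tract at the start and the ETS core were more frequent in the ribosomal protein genes, at 20.41% and 38.78%. Both E box forms (CAGCTG in 3 and CACCTG in 6 of the 49) and the RUNX core (5 of the 49) were less frequent. The TATA box (5 of the 49) was at 10.2%, against 4.67% of other genes above background and 9.772% of all genes. No error bars are drawn because these are shares of fixed gene sets.

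Ribosomal protein genes were among the brightest genes on every array. The background limit of an array was set at the 95th percentile of 104 genes restricted to other organs, and came to 7.36 (array 1), 7.49 (array 2) and 7.41 (array 3). Of the 61 genes, 57 exceeded it on all 3 arrays, against 41.1% of all genes. All 54 core genes did. Their median was 12.30, 12.03 and 12.20 on arrays 1, 2 and 3 (12.17 ± 0.14, SD, n = 3), against 6.84, 6.86 and 6.85 for all genes. Of the core genes, 46 were in the top 10% of all genes and 43 in the top 5%. Signal varies with the probes as well as the RNA, so the order of single genes is not an order of RNA amounts.

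The 30 large subunit genes had medians of 12.25, 12.07 and 12.20 on arrays 1, 2 and 3. Among the brightest was Rpl28, with 13.18, 13.09 and 13.11. Rpl21 had 13.15, 13.04 and 13.05. Rpl9 had 13.01, 13.04 and 13.11, and its highest array was array 3. Rpl5, which with Rpl11 carries 5S ribosomal RNA into the subunit, had 12.64, 12.46 and 12.61. Rpl23, another Mdm2-binding protein, had 12.27, 12.05 and 12.19. Both were lowest on array 2. Rpl10, which joins the large subunit late in its assembly, had 13.28, 12.89 and 12.94. Rpl7 averaged 12.14 ± 0.12 (SD, n = 3). Rpl38, which in mice is needed for translation of a subset of Hox mRNAs, had 11.94, 11.50 and 11.56. Rpl10 and Rpl38 were each clearly highest on array 1, with arrays 2 and 3 within 0.06 of each other.

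Rpl22 had 9.59, 8.97 and 9.02 on arrays 1, 2 and 3 (9.19 ± 0.34, SD, n = 3). Array 1 stood 0.62 above array 2, a 1.54-fold difference, while arrays 2 and 3 differed by 0.05. Its paralog Rpl22l1 was found only in probe sets that carry several symbols and was not analysed here.

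The stalk genes Rplp0, Rplp1 and Rplp2 build the lateral protuberance that recruits elongation factors, with Rplp0 as the base. Rplp0 had 13.48, 13.34 and 13.38 on arrays 1, 2 and 3, the highest mean of the 61 genes (13.40 ± 0.07, SD, n = 3). Rplp1 had 13.10, 12.82 and 12.89. Rplp2 had 8.55, 8.13 and 8.26. All 3 were highest on array 1 and lowest on array 2.

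The 21 small subunit genes had medians of 12.31, 11.90 and 12.08. Rps6, the S6 kinase substrate downstream of mTORC1, had 13.14, 13.01 and 13.06. Rpsa, also known as the laminin receptor precursor, had 12.73, 12.47 and 12.53. Rps19, the gene most often mutated in human Diamond-Blackfan anaemia, had 9.91, 9.53 and 9.53. Each of the 3 was highest on array 1. Rps4x, on the X chromosome, had 12.33, 11.90 and 12.21, with array 3 close to array 1.

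Most paralog symbols were at or near background. Rpl3l, whose human and mouse forms are restricted to striated muscle, had 5.70, 5.54 and 5.66. Rpl10l, a testis gene in mice, had 5.75, 5.49 and 5.83. Rpl39l, also a testis gene, had 4.52, 4.33 and 4.49. These 3 were below the limit on every array. Rps4l, which RefSeq lists as a transcribed pseudogene, had 7.16, 7.49 and 7.44 and lay at the limit, below it on array 1 and above it by less than 0.05 on arrays 2 and 3. Rpl7l1, a factor of large subunit assembly, was well above it with 9.35, 9.38 and 9.45. Rps27l, a p53 target in human cells, had 8.75, 8.39 and 8.51, and Rpl32l had 8.03, 7.81 and 7.87.

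**Figure D2:**
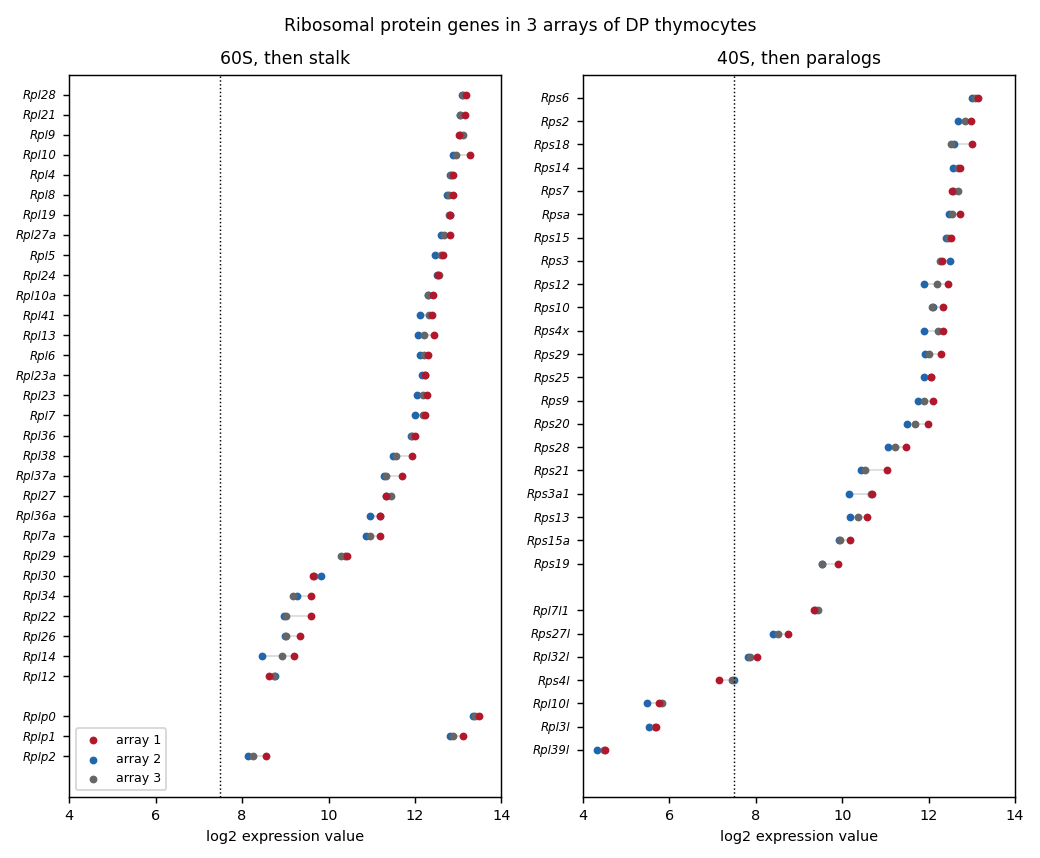
Log2 expression value of each of the 61 ribosomal protein genes on arrays 1, 2 and 3 (1 point per array, joined by a line), with large subunit and stalk genes on the left and small subunit and paralog genes on the right, each sorted by mean. The dotted line is the background limit of array 2, at 7.49; all 54 core genes lie to its right, and array 1 is the rightmost point of most genes.

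Low values occurred in all 3 kinds of core gene. Of the 54 core genes, 8 had a mean under 10: Rpl12, Rpl14, Rpl22, Rpl26, Rpl30, Rpl34, Rplp2 and Rps19. All 8 were read by 1 probe set. The median mean was 9.87 over the 16 core genes with 1 probe set and 12.26 over the 38 with several, where the brightest was taken. Among core genes with 1 probe set, 5 were counted that also occur in probe sets with several symbols. Of these 5, 4 were brighter there, and the gaps ran from -0.70 to 3.77. Whether RNA amount or probes set the low values of the 8 genes was not tested.

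Not every ribosomal protein gene could be read. Of 79 listed core genes, 55 had a probe set of their own, 54 of them included here. The remaining one, Fau, whose product is cleaved to a 40S protein, has a symbol outside the rule and had 11.80, 11.74 and 11.70. Another 16, among them Rpl3, Rpl11, Rpl13a, Rpl39 and Rps27, occur only in probe sets with several symbols. A further 8, among them Rps27a, were not analysed here. Rpl36al was likewise found only with several symbols.

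The arrays differed in the level of these genes. With 1 array per cohort, a difference between cohorts cannot be told apart from one between arrays. Of the 61, 49 were highest on array 1, against 34.5% of all genes, and 47 were lowest on array 2, against 27.8%. Array 2 was the highest for 4 (33.0% of all genes) and array 3 for 7 (29.0%). The lowest array was array 1 for 6 (39.3% of all genes) and array 3 for 6 (29.4%), and ties account for the rest. The mean deviation of the 61 from their own 3-array means was 0.12, -0.11 and -0.02 on arrays 1, 2 and 3. It was 0.16, -0.14 and -0.03 for the small subunit, 0.11, -0.09 and -0.02 for the large subunit and 0.16, -0.12 and -0.04 for the stalk. Over 1655 other genes with means in the interquartile range of the 61 (10.02 to 12.58), whose median of 10.55 was below the 12.06 of the 61, it was -0.01, 0.00 and 0.01. Of the 61, 54 were higher on array 1 than on array 2, against 45.4% of all genes. The median difference over the core genes was 0.24, or 1.18-fold.

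**Figure D3:**
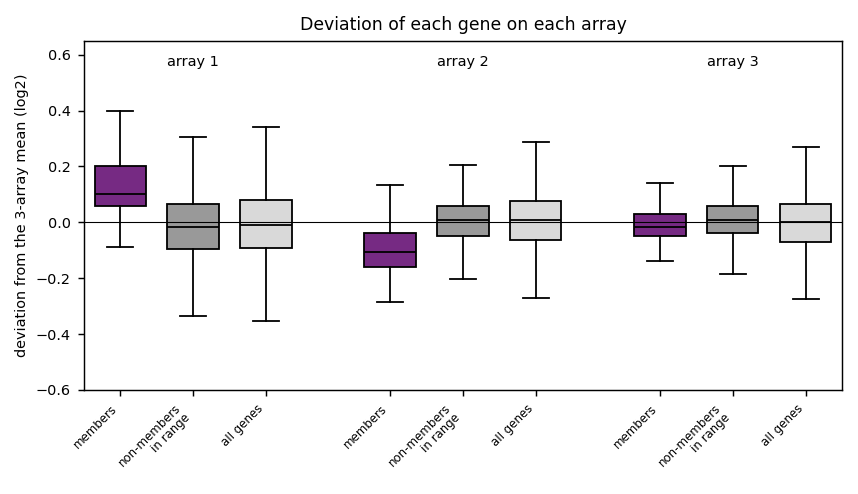
Deviation of each gene from its 3-array mean (log2), for the 61 ribosomal protein genes, 1655 other genes with means in their interquartile range and all 19938 genes, on arrays 1, 2 and 3. Boxes span the quartiles with the median as a line, and whiskers reach up to 1.5 times the box height; the ribosomal protein genes lie above 0 on array 1 and below 0 on array 2, and the other sets are centred near 0.

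With a limit of 0.3 between 2 arrays, 22 of the 61 were higher on array 1 than on array 2, against 8.97% of all genes, and 1 was lower, against 9.29%. That gene was Rps4l, at background, whose difference of -0.33 became 0.03 with the mean of its probe sets and 0.39 with the dimmer one. The 22 comprised 11 of 21 small subunit genes, 9 of 30 large subunit genes, Rplp2 and Rps27l. Between arrays 1 and 3, 9 were higher on array 1 (9.09% of all genes) and 0 lower (7.98%). Between arrays 2 and 3, 0 were higher on array 2 (4.96% of all genes) and 5 lower (3.93%). The median difference between arrays 1 and 2 was 0.35 for the small subunit and 0.18 for the large subunit. That contrast between subunits was not tested.

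Rpl14, a large subunit protein, had 9.21, 8.45 and 8.92 on arrays 1, 2 and 3. Its difference of 0.76 between arrays 1 and 2 (1.69-fold) was the largest among the 61 genes. Rps21, a small subunit protein, had 11.03, 10.43 and 10.52. There array 1 stood apart from both other arrays, by 0.60 and 0.51. Rps12 had 12.44, 11.89 and 12.20, with array 3 between the others. Rps3a1 had 10.70, 10.16 and 10.66, with array 2 apart from the other arrays. Of the 22 genes, array 3 was nearer to array 2 in 18 and nearer to array 1 in 4 (Rpl14, Rps12, Rps3a1 and Rps4x).

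Some members hardly differed between arrays. In 9 of the 61 genes the 3 arrays lay within 0.1 of each other, a slightly lower share than the 17.9% of all genes. Rpl19, named after its values were seen, had 12.82, 12.80 and 12.79. Rps3, Rpl30 and Rpl12 were lower on array 1 than on array 2: Rps3, which lies at the mRNA entry channel, had 12.31, 12.49 and 12.27. Rpl30 had 9.65, 9.82 and 9.66, and Rpl12, part of the stalk base, had 8.62, 8.77 and 8.74.

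No single gene passed a test of its spread. The variance of each probe set over the arrays was compared with that of probe sets at the same level (limma, F test against a robust trended prior, Benjamini-Hochberg over 28939 probe sets). Of the 61, 0 had an adjusted p under 0.05, where 0.0207% of probe sets did, and 6 had an unadjusted p under 0.05 (4.66% of probe sets). These were Rpl14, Rpl22, Rps21, Rps3a1, Rps12 and Rps18. The smallest was that of Rpl14, at 0.0126, and its adjusted p was 0.988 in limma. Differences larger than any among the 61 also failed the test. Gadd45b, an immediate-early gene named after its values were seen, had 10.65, 8.28 and 8.40. Its adjusted p was 0.195 in limma. The count of 0 therefore does not show that the spread of the 61 was ordinary. The median SD over arrays was 0.14 for the 61 genes, against 0.09 for the 1655 other genes in their interquartile range. For the core genes it was also 0.14. It was 0.08 for 412 other genes in the interquartile range of the core genes, a range chosen after the data were seen.

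Different probe sets of one gene gave like differences. Of the 61 genes, 38 had probe sets with distinct profiles, and in 33 of these all probe sets had one sign of the difference between arrays 1 and 2, which was positive in 32. The SD of that difference was 0.06 within genes and 0.17 between genes. Its median range within a gene was 0.07, against 0.16 in 943 other genes with several probe sets. Those other genes were not matched for level, and the share of them with one sign was not counted. The 14 probe sets of Rps12, some with identical values (8 distinct profiles), gave differences from 0.55 to 0.60. The 7 of Rpl19 gave -0.01 to 0.04. Rps4l had the widest range, from -0.33 to 0.39. Probe sets of one gene measure the same RNA and can share targets, so they are not replicates.

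**Figure D4:**
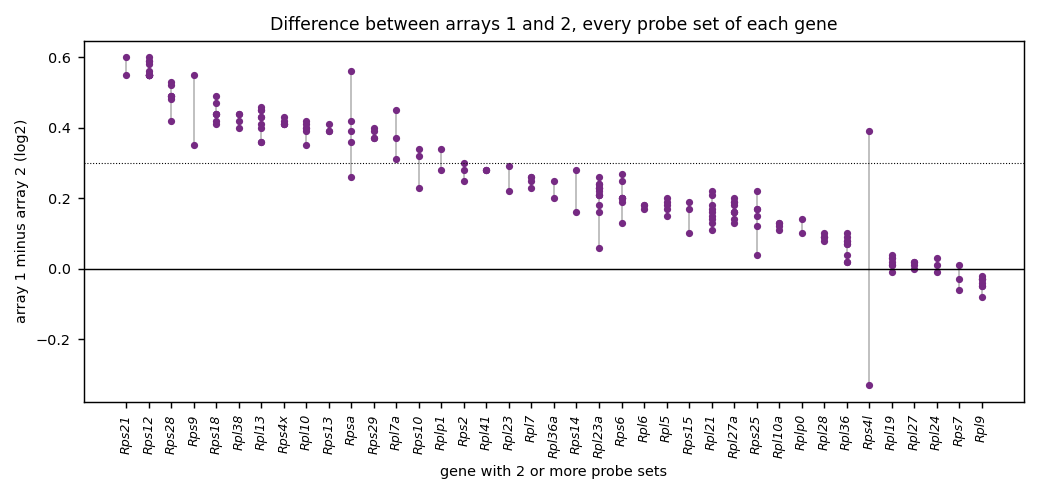
Difference between arrays 1 and 2 (log2) for every probe set of the ribosomal protein genes with several probe sets; each point is a probe set, and a vertical line spans the probe sets of a gene. The dotted line marks 0.3; probe sets of Rps12 (0.55 to 0.60) and Rpl19 (-0.01 to 0.04) keep apart, and Rps4l spans 0.

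Probe sets with several symbols were not used above. Of 237 that hold a ribosomal protein symbol, 208 (87.8%) were higher on array 1 than on array 2, against 45.4% of all genes. The first share counts probe sets, with a median level of 11.98, and the second counts genes, with a median of 6.85. The 237 probe sets can share targets with the probe sets above, so they are not separate replicates. Promoter entries gave a chromosome for 49 genes, 3 of them X-linked. Rpl10, Rpl36a and Rps4x differed by 0.25 to 0.43 between arrays 1 and 2, while the 46 autosomal genes had a median of 0.24. Over 197 other X-linked genes above background the median was -0.03.

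Several other measures moved with array 1, and their part in the ribosomal protein differences was not tested. The cohort of array 1 differed in sex-linked transcripts: Xist had 11.65, 5.40 and 5.68 on arrays 1, 2 and 3, and the Y-linked Eif2s3y had 4.21, 10.29 and 10.08. Of 20 immediate-early genes, 18 were highest on array 1 (34.5% of all genes), with a mean deviation of 0.70, -0.37 and -0.33. Fos, for example, had 9.39, 7.86 and 8.27. Of 7 markers of mature T cells, 5 were above background on all arrays, and 6 were highest on array 1 (34.5% of all genes). By more than 0.3, 5 of the 7 were higher on array 1 than on array 2 (8.97% of all genes) and 0 lower (9.29%). Il7r and Cd44, both among those higher, were above background on array 1 only. The mean deviation of the 7 was 0.33, -0.25 and -0.08. Of 16 myeloid and dendritic markers, 3 were above background on all arrays (H2-Ab1, H2-Eb1 and Cst3) and 11 on none, with list medians of 6.72, 6.24 and 6.51. The mean deviation of the 16 was 0.24, -0.22 and -0.02. By more than 0.3, 9 of the 16 were higher on array 1 than on array 2 (8.97% of all genes) and 1 was lower (9.29%). Among them H2-Aa, an MHC class II gene named after its values were seen, had 8.44, 6.75 and 7.81. Itgam, Csf1r and Lyz2 were below background on every array. All 15 measured DP stage markers were above background, and their mean deviation was -0.12, 0.06 and 0.06. B cell markers were above background in 1 of 9, thymic epithelial markers in 2 of 12 and erythroid markers in 0 of 5. Of the 12 thymic epithelial markers, 8 were above background on no array and 10 were lowest on array 1 (39.3% of all genes). Their mean deviation was -0.16, 0.06 and 0.10. By more than 0.3, 0 of the 12 were higher on array 1 than on array 2 and 4 were lower.

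The rest of the pathway was set beside the ribosomal proteins with lists drawn up with earlier results known. Of 13 measured TOP mRNA genes outside the family, all were above background, and their mean deviation was 0.09, -0.07 and -0.02. The elongation factor genes among them differed: Eef1b2 had 11.15, 10.38 and 10.51, whereas Eef1a1 averaged 13.05 ± 0.05 (SD, n = 3) and Eef2 had 12.80, 12.75 and 12.78. Eef1d had 9.0, 8.60 and 8.76. Of the 13, 2 were higher on array 1 than on array 2 by more than 0.3 (15.4%, against 8.97% of all genes). All 31 measured ribosome biogenesis genes were above background, with a mean deviation of 0.07 on array 1, and 5 were past the same limit (16.1%). Fibrillarin (Fbl), the rRNA methyltransferase, had 8.82, 8.29 and 8.42. Nucleolin (Ncl) had 11.49, 11.24 and 11.28, and Npm1 had 11.09, 10.82 and 10.93. Nop56, a snoRNP core protein, had 11.11, 10.87 and 10.69.

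Of 13 genes of mTORC1 and its control of TOP mRNAs, 12 were above background. The mean deviation of the 13 was 0.07, -0.02 and -0.06 on arrays 1, 2 and 3. By more than 0.3, 3 were higher on array 1 than on array 2 (23.1%, against 8.97% of all genes). These were Rheb, Eif4ebp2 and Larp1. Akt1s1 was lower by more than 0.3 (7.7%, against 9.29% of all genes). Larp1, named after its values were seen, had 10.32, 9.96 and 9.89. The kinase Mtor had 9.24, 9.24 and 9.21, its partner Rptor 9.40, 9.32 and 9.33, and Mlst8 8.60, 8.70 and 8.47. The activating GTPase Rheb had 9.54, 8.84 and 9.08 and was highest on array 1. Of 7 genes of the p53 arm, 3 were above background on all arrays. Mdm2 had 9.97, 9.63 and 9.55, Mdm4 10.45, 10.68 and 10.58, Ccng1 9.95, 10.27 and 10.37, and Bbc3 7.62, 7.18 and 7.44. In these 4 lists 0 genes passed the adjusted variance test (limma).

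**Figure D5:**
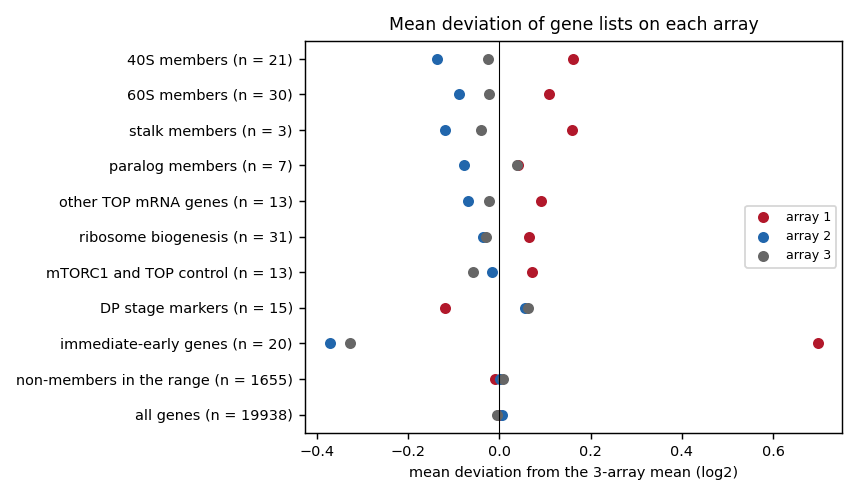
Mean deviation from the 3-array mean (log2) of each gene list on arrays 1, 2 and 3, with the number of genes in each list. The ribosomal protein genes of both subunits lie right of 0 on array 1 and left of 0 on array 2; of the lists plotted, immediate-early genes deviate most, at 0.70 on array 1, and DP stage markers deviate the other way.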

How the data were processed

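Total RNA of DP thymocytes from 3 cohorts of littermates was hybridised to 3 Affymetrix arrays after in vitro transcription labelling, per the labels' protocols. The authors deposited log2 values for every probe set on each array, a unit read from their range (1.6 to 14.94). Processing used affy in R, per the submitters' processing notes; how probes were normalized and summarized is not given in the sources used. The sorted values of any 2 arrays differed by at most 0.15, so a global shift in RNA content would not be visible.

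Gene symbols came from the platform table: 21789 of 35556 probe sets have 1 symbol, 1621 several and 12146 none. Only probe sets with 1 symbol were used. The 6617 probe sets numbered below the first named one, taken to be controls, were left out of the variance test. Tools were limma 3.58.1 in R 4.3.3, Python 3.11.15, numpy 2.4.6, pandas 2.3.3 and matplotlib 3.10.9. The variance test was tested on simulated data. The members, gene lists and naming rule were chosen with earlier results of these data known. Named genes were a set of family members of known interest, those at the extremes of level, of the difference between arrays 1 and 2 and of SD, members at background, X-linked members and the first 4 measured genes of each other list. Other genes were named after their values were seen. The number of arrays limits the precision. Alternatives were quantile normalization, median centring, other probe set rules, other limits and leaving out each array.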

Additional observations from a re-analysis of the deposited data

How the results depend on the processing

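No paired analysis was possible because the series has 1 group. With the mean of all probe sets of a gene, the median level of the 61 genes was 11.69, and with the dimmest probe set it was 11.37, against 12.06 with the brightest. With a limit of 0.5 log2, 5 genes were higher on array 1 than on array 2 and 0 lower, 2 were higher on array 1 than on array 3, and 0 were lower on array 2 than on array 3. After quantile normalization, 3 genes were lower on array 2 than on array 3, against 5, and 17 were higher on array 1 than on array 2 by more than 0.3, all of them among the 22; 44 were highest on array 1, against 49, and the mean deviation on arrays 1, 2 and 3 was 0.094, -0.080 and -0.014. The looser window for the pyrimidine run gave 85.71%. The difference of Rps4l between arrays 1 and 2 changed sign, from -0.33 to 0.03 with the mean of its probe sets and 0.39 with the dimmer one. Leaving out each array in turn gave 57 to 58 genes above background, 50 to 54 higher on array 1 than on the 1 other array left, and medians from 11.98 to 12.14. The mean deviation then ran from 0.070 to 0.114 on array 1, -0.114 to -0.044 on array 2 and -0.070 to 0.044 on array 3, where dropping array 1 turned the sign. The variance test called 0 of the 61 under every alternative run, with 2 to 9 at an unadjusted p under 0.05. The other genes set beside the 61 were also taken from the narrower range of the core genes alone (11.03 to 12.63, 412 genes). Both versions were computed, and the wider range, written in the fixed design, was kept; the excess of the ribosomal protein genes on array 1 was 0.131 with it and 0.135 with the narrower one. In the narrower range the sorted values of array 1 exceeded those of array 2 by a median of 0.06, against 0.01 in the wider one. Settings named here as the narrower range, the looser window and the values of single genes were chosen after seeing the data. The cause of these changes was not tested.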
